A study of Homo sapiens with 8 samples.

Results

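The protein genes of the cytosolic ribosome were followed in 2D human intestinal epithelial cells (hIECs) exposed to particulate matter (PM10), to inflammatory cytokines, or to both. The genes were the protein-coding rows whose symbol is RPL or RPS followed by a number, together with RPSA, RPLP0, RPLP1 and RPLP2. This rule uses the symbol alone and found 85 of the 60558 genes. Of these, 2 are Y-linked and are counted here without values, which left 83, of which 51 carry names of the large (60S) subunit and 32 of the small (40S) subunit.

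The cells were made from the established human embryonic stem cell line H9, and 4 groups with 2 poly-A selected RNA-seq libraries each were compared. Normal hIECs were untreated, and normal hIECs with PM10 received 100 μg/ml of the particles for the last 7 of 10 days. Inflamed hIECs received the cytokines IFNγ and TNFα, each at 50 ng/ml, for 10 days, and inflamed hIECs with PM10 received both cytokines and the particles on the same schedule. All groups come from the same cell line, and no label says that the 2 libraries of a group came from separate cultures, so a p-value here measures only the spread between these libraries. Levels are FPKM, which count fragments relative to transcript length and to all mapped fragments of a library, so a lower value is a lower share of that library and not a count of mRNA molecules per cell. In these bulk samples, fewer cells of a type and less RNA per cell cannot be told apart.

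The files went against the epithelial label in part. Of 21 epithelial marker genes, 12 were listed at 0 in all 8 libraries, among them VIL1, CDX2, MUC2, LYZ and CHGA, which define enterocytes, intestinal identity, goblet cells, Paneth cells and endocrine cells, and 16 stayed under 1 FPKM in all 8. None of 15 mesenchymal markers was at 0. The cytokine response genes IRF1, CXCL10, GBP1 and IDO1 passed the test as higher with the cytokines, both without and with PM10. Genes of mitochondrial DNA held 17.02% and 24.2% of the FPKM in the normal libraries and 15.5% to 20.4% in the other 6. The lowest value above 0 lay between 0.164 and 0.228 FPKM in every library, far under the levels of nearly all ribosomal protein genes.

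A ribosome joins a small subunit, which reads the mRNA, to a large subunit, which forms the peptide bond, and each ribosomal protein is needed in about 1 copy for each ribosome. Their mRNAs are among the most abundant of a growing cell. Most of them begin with a terminal oligopyrimidine (TOP) tract, a C followed by a run of pyrimidines, through which mTORC1 and the RNA-binding protein LARP1 control their translation and their stability together. In the intestine, where the epithelium is renewed throughout life, the making of ribosomes is tied to growth and cell division.

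The start sites show what most of these genes share in sequence. RefSeq start sites were found for 66 of the 83 genes, some with several. In 47 of the 66 (71.2%) the first base at any of the annotated starts was a C followed by at least 4 pyrimidines on the coding strand. Among all 27305 genes of the same table the share was 5.14%, and among the 78 mitochondrial ribosomal protein genes it was 6 of the 69 with an entry (8.7%). When the C could lie up to 5 bases to either side of an annotated start, the shares were 81.8% and 25.2% of all genes. Each window runs from 10 bases before the annotated first base and takes in the first 18 bases of the transcript, 28 bases in all, in GRCh38.p14 coordinates, and capitals mark the TOP tract where the strict rule found one. The first 7 genes carry the tract and the last 3 do not, and the genes were chosen because the levels of each are described further on. RPL34 has another annotated start, not printed, without the tract.
RPS6 (chr9:19380219-19380246, minus strand): gaagttggccCTCTTTTCCgtggcgcct
RPLP0 (chr12:120201094-120201121, minus strand): ggcgcgaggcCCTTCTCTCgccaggcgt
RPS24 (chr10:78033853-78033880, plus strand): aatcgtggttCTCTTTTCCTCCTTggct
RPL13A (chr19:49487598-49487625, plus strand): aaacctcctcCTTTTCCaagcggctgcc
RPL34 (chr4:108620566-108620593, plus strand): cttttttcttCCTCTTCCggggacgttg
RPL41 (chr12:56116623-56116650, plus strand): cttcgcctttCTCTCggccttagcgcca
RPL22L1 (chr3:170870178-170870205, minus strand): ccgtagcttcCTCTCTgctctcgcggcc
RPS26 (chr12:56041908-56041935, plus strand): acataacctcgattttcttccgccatcc
RPS27L (chr15:63157460-63157487, minus strand): gatgccgagcgcagatcgcttgcagctt
RPL7L1 (chr6:42879606-42879633, plus strand): gtgcggcgccgtagctaggagcggacgc
The pyrimidine run of RPS24, a small subunit protein, fills 14 bases from the annotated start and that of RPL41, the shortest ribosomal protein, fills 5. RPS26 has a pyrimidine-rich stretch too, but its annotated first base is a G. RPS27L and RPL7L1, like-named copies of RPS27 and RPL7, have no such run at the start. A match or a missing match describes these letters only.

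In normal hIECs the ribosomal protein genes held more of the transcriptome than in any other group. Their share of all FPKM was 14.1% and 13.4% in the normal libraries, 12.3% and 12.4% with PM10, 9.52% and 9.48% in the inflamed libraries, and 8.75% and 8.86% in the inflamed libraries with PM10. The libraries of no pair of groups overlapped. The group means were 13.8% ± 0.44, 12.3% ± 0.027, 9.50% ± 0.032 and 8.80% ± 0.083 (SD, n = 2 each). A two-sided exact permutation test of 2 against 2 libraries has a smallest p-value of 0.333, so no test of this share is given.

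**Figure D1:**
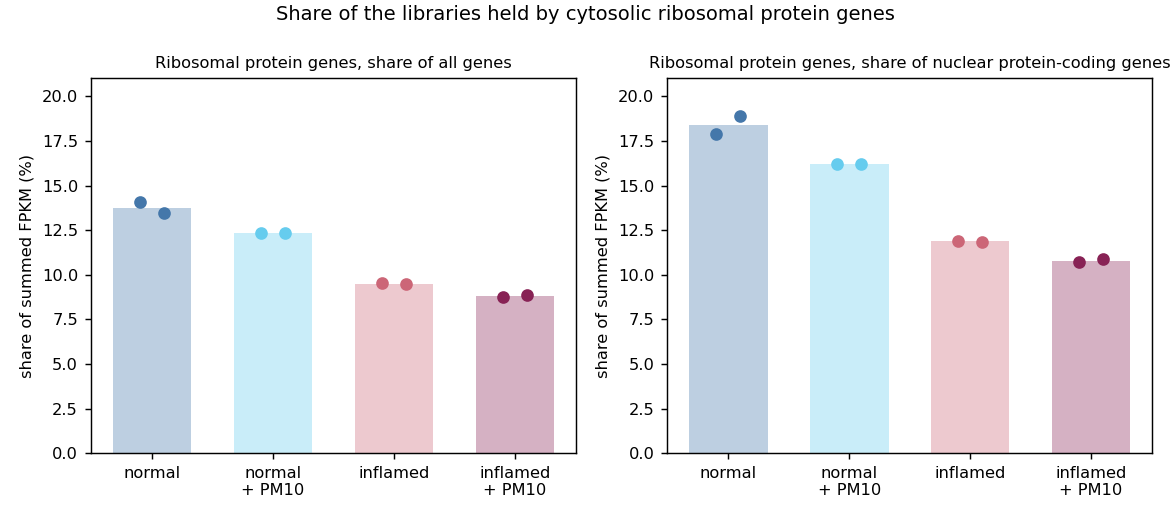
Share of the summed FPKM held by the 83 ribosomal protein genes, in percent, in each library (points) with the group mean (bars), of all genes on the left and of nuclear protein-coding genes on the right. On the left the points fall from 14.1% and 13.4% in normal hIECs to 8.75% and 8.86% in inflamed hIECs with PM10, and the order of the groups is the same on the right.

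The order did not depend on the mitochondrial transcripts. Of the FPKM of nuclear protein-coding genes, the ribosomal protein genes held 17.9% and 18.9% in the normal libraries, 16.2% in both libraries with PM10, 11.9% and 11.8% in the inflamed libraries, and 10.7% and 10.9% in the inflamed libraries with PM10. Across the genes the median level was 700 and 732 FPKM in the normal libraries, 629 and 607 with PM10, 451 and 461 in the inflamed libraries, and 419 and 409 in the inflamed libraries with PM10. Means over the 2 libraries fell in the order normal, normal with PM10, inflamed, inflamed with PM10 for 66 of the 81 genes tested. The share of all genes in this order was not computed.

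The genes were expressed at high and unequal levels. Of the 83, 81 were above 0 in all 8 libraries and all 81 passed the filter on low values, at least 1 FPKM in at least 2 libraries, so none entered the test through a single group. RPL3L, the copy of RPL3 found in striated muscle, and RPL10L, the copy of RPL10 found in testis, were listed at 0 in all 8. A level over 100 FPKM in every library was reached by 75 genes. Without the 5 expressed like-named copies, the upper quartile of the levels was 1.82 to 2.06 times the lower quartile in each library. This spread stayed similar while the level fell, and the small subunit held 42.3% to 43.6% of the summed FPKM of these 76 genes in every library.

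The highest mean levels were those of RPS18, RPS27 and RPS24, all proteins of the small subunit. RPS18 was at 1910.2 and 1772 FPKM in the normal libraries, 1590.2 and 1593 with PM10, 1253 and 1105 in the inflamed libraries, and 1041 and 1126 in the inflamed libraries with PM10. RPS27 was at 1911 and 1722 FPKM in the normal libraries, 1714 and 1697 with PM10, 1085 and 1088 in the inflamed libraries, and 1042 and 1059 in the inflamed libraries with PM10. RPS24 was at 1643 and 1781 FPKM in the normal libraries, 1529 and 1548 with PM10, 938 and 954 in the inflamed libraries, and 763 and 798 in the inflamed libraries with PM10. For all 3, both inflamed groups lay below both groups without cytokines. The lowest levels among genes above 0 everywhere were those of RPL22L1, RPL7L1 and RPL39L, which are like-named copies and are described with the other copies.

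The 2 libraries of a group agreed closely for most of the genes. On the log2 scale the median gap between them was 0.09 in normal hIECs and 0.05 in each of the other groups. A gap over 0.5 was seen for RPL28, RPL23, RPL36A and RPS27L in normal hIECs, for RPL28 and RPL37 in normal hIECs with PM10, for RPL13 and RPS27L in inflamed hIECs, and for RPL13 in inflamed hIECs with PM10. RPL36A, a large subunit protein whose exons overlap 2 other genes, was at 462 and 679 FPKM in the normal libraries, 432 and 387 with PM10, 312 and 350 in the inflamed libraries, and 287 and 308 in the inflamed libraries with PM10. Its groups with cytokines lay below those without, and the values of the other 5 genes follow with their results.

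With the cytokines, ribosomal protein mRNAs fell as a group. Inflamed hIECs against normal hIECs, both without PM10, had 73 of the 81 genes lower and 4 higher at an adjusted p-value under 0.05 in limma, and 4 did not pass. Over all 14206 genes tested, 30.3% were called lower and 25.9% higher. The median log2 difference of the 81 was -0.63, a median level that fell by 35.6%, beside a median of -0.03 over all genes, and it was -0.39 after quantile normalization. The 2 inflamed libraries lay below the 2 normal libraries for 74 of the 81, a separation that 41% of all genes showed.

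The second pair of groups, which shares no library with the first, gave the same picture. Both pairs were tested in the same fit with a shared spread for each gene, so their calls are not independent. Where both groups had PM10, inflamed against normal hIECs, 71 of the 81 genes were lower and 3 higher, and 7 did not pass. Over all genes 39.6% were called lower and 25.8% higher. The median difference was -0.57, a level that fell by 32.7%, beside -0.11 over all genes. Libraries were separated downward for 75 of the 81 and for 50.2% of all genes. In all, 69 genes were called lower in both pairs of groups, as were 27.4% of all genes tested.

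**Figure D2:**
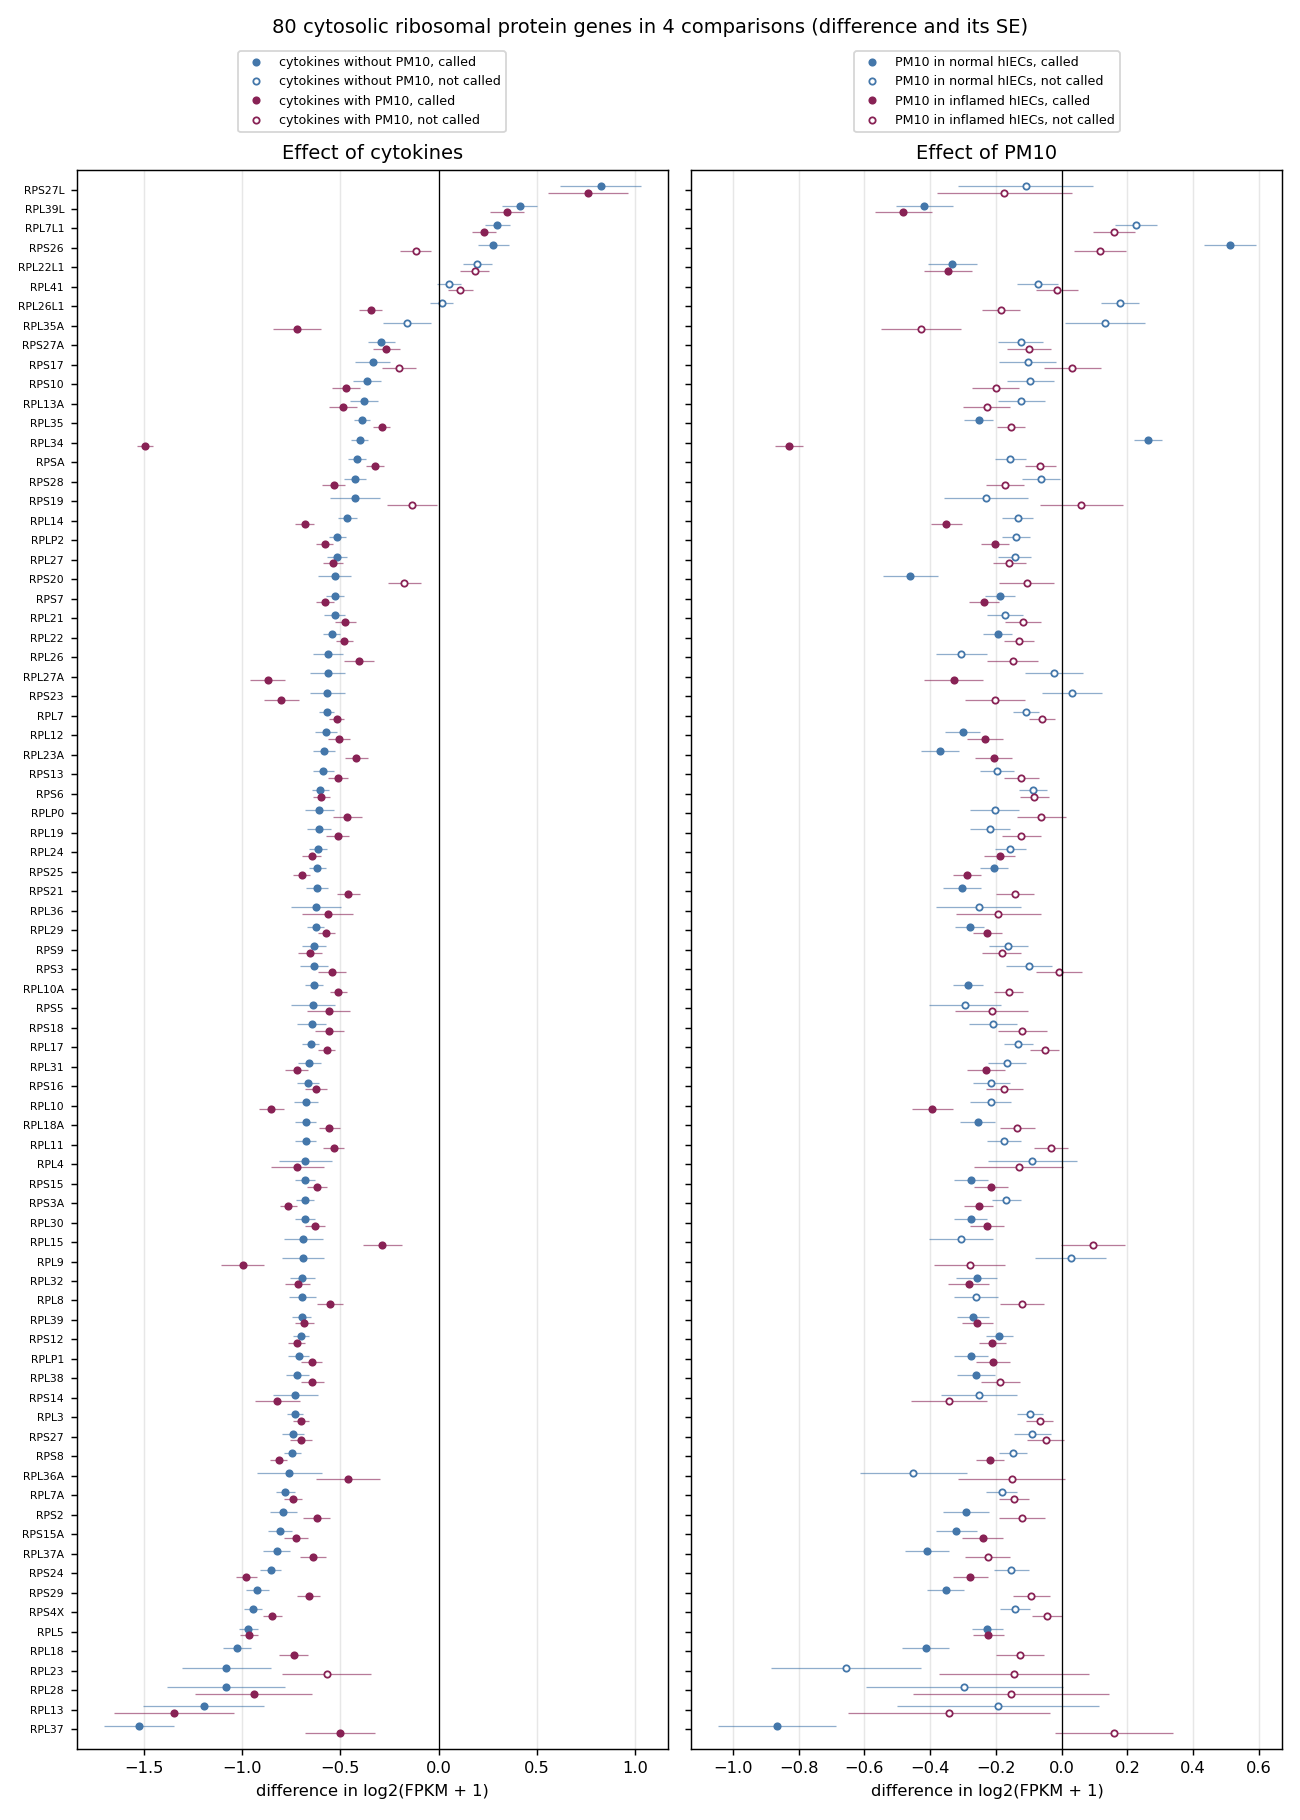
Difference in log2(FPKM + 1) of 80 of the 81 genes, with its standard error as a bar, for the cytokines (left) and for PM10 (right), ordered by the effect of the cytokines without PM10. Filled points passed an adjusted p-value of 0.05 in limma and open points did not. On the left 72 of the genes drawn without PM10 and 70 with PM10 are filled to the left of 0, and on the right the values are smaller, with 27 and 25 of the genes drawn called lower.

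Both subunits fell. Among the 45 large subunit genes other than like-named copies, 43 were called lower with the cytokines both without and with PM10, with medians of -0.66 and -0.57. Among the 31 small subunit genes, 30 were lower and 1 was higher without PM10, and 27 were lower with PM10, with medians of -0.63 and -0.62. No test of the difference between the subunits was run.

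The P stalk is the flexible arm of the large subunit that recruits translation factors, and RPLP0 is its base. RPLP0 was at 1231 and 1123 FPKM in the normal libraries, 955 and 1090.0 with PM10, 759 and 786 in the inflamed libraries, and 722 and 758 in the inflamed libraries with PM10. The 2 proteins that RPLP0 carries are RPLP1 and RPLP2, and RPLP1 was at 691 and 751 FPKM in the normal libraries, 588 and 603 with PM10, 432 and 447 in the inflamed libraries, and 383 and 378 in the inflamed libraries with PM10. RPLP2 was at 953 and 975 FPKM in the normal libraries, 885 and 866 with PM10, 678 and 670.0 in the inflamed libraries, and 593 and 577 in the inflamed libraries with PM10. All 3 were lower in every inflamed library than in every library without cytokines. The differences for the cytokines without PM10 were -0.61 ± 0.08 (SE, adjusted p = 0.000386) for RPLP0, -0.71 ± 0.05 (SE, adjusted p = 2.76e-05) for RPLP1 and -0.52 ± 0.04 (SE, adjusted p = 4.6e-05) for RPLP2.

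RPL5 and RPL11 join the 5S rRNA in a particle that is built into the large subunit and that, when free, binds MDM2, the ubiquitin ligase of p53. RPL5 was at 1004 and 1023 FPKM in the normal libraries, 894 and 839.6 with PM10, 523 and 513 in the inflamed libraries, and 440.1 and 446 in the inflamed libraries with PM10. RPL11 was at 1017 and 1082 FPKM in the normal libraries, 928 and 929 with PM10, 639.6 and 672 in the inflamed libraries, and 625 and 658 in the inflamed libraries with PM10. RPL5 stepped down at each group, while the PM10 libraries of RPL11 in inflamed hIECs overlapped those without PM10. With the cytokines alone the difference was -0.97 ± 0.05 (SE, adjusted p = 3.41e-06) for RPL5 and -0.68 ± 0.05 (SE, adjusted p = 3.67e-05) for RPL11, and in the presence of PM10 it was -0.97 and -0.53. Exons of RPL5 overlap DIPK1A and a small nucleolar RNA gene, and reads carry no strand information, so part of its level could belong to these genes.

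RPS27A is made as a fusion with ubiquitin, and the small subunit protein FAU as a fusion with a ubiquitin-like protein. RPS27A was at 524 and 559 FPKM in the normal libraries, 504 and 488 with PM10, 472 and 414 in the inflamed libraries, and 416 and 409 in the inflamed libraries with PM10. Its values overlapped between none of the groups with and without cytokines, yet the change was among the smallest of the genes called lower, -0.29 ± 0.07 (SE, adjusted p = 0.00837) without PM10 and -0.27 ± 0.07 (SE, adjusted p = 0.0104) with PM10. After quantile normalization the difference without PM10 was 0.00 (adjusted p = 0.972). The call without PM10 was also lost without inflamed library 2 (adjusted p = 0.0505), and the call with PM10 without normal PM10 library 1 (0.0598) or inflamed PM10 library 2 (0.0549). FAU, whose symbol falls outside the rule, was lower by the same test, with a difference of -0.58 for the cytokines without PM10. A further ribosomal protein outside the rule, RACK1, the scaffold at the head of the small subunit, had a difference of -0.69 and was also called lower, while RPL36AL, the copy of RPL36A, was at 0.04 (adjusted p = 0.476) and was not called.

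RPS6 is the ribosomal protein phosphorylated by S6 kinase below mTORC1, and RPL13A is released from the ribosome in cells treated with IFNγ and then silences selected mRNAs. RPS6 was at 931 and 907 FPKM in the normal libraries, 874 and 855 with PM10, 611 and 600.1 in the inflamed libraries, and 581 and 562 in the inflamed libraries with PM10. Its difference with the cytokines was -0.60 ± 0.04 (SE, adjusted p = 2.51e-05) without PM10 and -0.60 ± 0.04 (SE, adjusted p = 1.8e-05) with PM10. RPL13A was at 1399 and 1579 FPKM in the normal libraries, 1349 and 1381 with PM10, 1201 and 1085 in the inflamed libraries, and 976 and 973 in the inflamed libraries with PM10. Its fall was smaller, -0.38 ± 0.07 (SE, adjusted p = 0.00315) without PM10 and -0.49 ± 0.07 (SE, adjusted p = 0.000725) with PM10. Inflamed and non-inflamed libraries did not overlap for either gene. Exons of RPL13A overlap 4 small nucleolar RNA genes that lie in it and 1 other gene.

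The largest falls with the cytokines without PM10 were those of 5 large subunit proteins, RPL37, RPL13, RPL28, RPL23 and RPL18. RPL37, a zinc finger protein of the large subunit, was at 568 and 499 FPKM in the normal libraries, 237 and 358 with PM10, 178 and 190.2 in the inflamed libraries, and 189.9 and 223 in the inflamed libraries with PM10. It fell to the lowest levels wherever cytokines were present, and in normal hIECs PM10 lowered it as well. Its difference with the cytokines was -1.53 ± 0.18 (SE, adjusted p = 0.000283) without PM10 and -0.50 ± 0.18 (SE, adjusted p = 0.0395) with PM10, and the second call was lost when any library other than normal PM10 library 1 was left out, with adjusted p-values of 0.0557 to 0.189. The value itself was -0.80 without normal PM10 library 1 and -0.20 without normal PM10 library 2.

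RPL13 was at 599.7 and 718 FPKM in the normal libraries, 542 and 607 with PM10, 213 and 383 in the inflamed libraries, and 173 and 293 in the inflamed libraries with PM10. The 2 libraries of each inflamed group lay far apart, but all 4 were below the lowest library without cytokines. Its difference was -1.20 ± 0.31 (SE, adjusted p = 0.0126) without PM10 and -1.35 ± 0.31 (SE, adjusted p = 0.00618) with PM10, and the first missed the threshold without normal library 2 (adjusted p = 0.0778) or without inflamed library 1, where it was -0.78 (adjusted p = 0.0678).

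RPL28 was at 301 and 576 FPKM in the normal libraries, 274 and 419 with PM10, 189 and 203 in the inflamed libraries, and 165 and 188 in the inflamed libraries with PM10. RPL23, another large subunit protein, was at 330.4 and 596 FPKM in the normal libraries, 277 and 286 with PM10, 209 and 209.8 in the inflamed libraries, and 180.4 and 199 in the inflamed libraries with PM10. For both, normal library 2 stood well above normal library 1. RPL28 differed by -1.08 ± 0.30 (SE, adjusted p = 0.017) without PM10 and by -0.94 ± 0.30 (SE, adjusted p = 0.0256) with PM10. The value without PM10 was -0.62 (adjusted p = 0.0758) when normal library 2 was left out, and the call was also lost without inflamed library 1 or 2, with values of -1.03 and -1.13. With PM10 the RPL28 call was lost without normal PM10 library 2, where the value was -0.64, and without inflamed PM10 library 1 or 2, where it was -0.84 and -1.04. RPL23 differed by -1.08 ± 0.23 (SE, adjusted p = 0.00526) without PM10, a value of -0.65 (adjusted p = 0.000451) when normal library 2 was left out, and by -0.57 ± 0.23 (SE, adjusted p = 0.059) with PM10, which did not pass.

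RPL18 and RPS4X fell by similar amounts with far less spread. RPL18 was at 936 and 1005 FPKM in the normal libraries, 695 and 762 with PM10, 451 and 503 in the inflamed libraries, and 443 and 429 in the inflamed libraries with PM10. Its difference was -1.03 ± 0.07 (SE, adjusted p = 2.25e-05) without PM10 and -0.74 ± 0.07 (SE, adjusted p = 8.42e-05) with PM10. RPS4X, the X-linked form of a small subunit protein, was named here after its values were seen, as a gene close between libraries, and was at 1122 and 1055 FPKM in the normal libraries, 997 and 975 with PM10, 564 and 567 in the inflamed libraries, and 547 and 549.9 in the inflamed libraries with PM10. The 4 inflamed libraries of RPS4X were within 547 to 567 FPKM while the other 4 were within 975 to 1122, and its difference was -0.94 ± 0.05 (SE, adjusted p = 3.63e-06) without PM10 and -0.85 ± 0.05 (SE, adjusted p = 4.5e-06) with PM10.

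In the presence of PM10 the largest falls with the cytokines were those of RPL34, RPL13, RPL9, RPS24 and RPL5. RPL9, a large subunit protein, was at 798 and 612 FPKM in the normal libraries, 710.4 and 713 with PM10, 441 and 425 in the inflamed libraries, and 361 and 351 in the inflamed libraries with PM10. The normal libraries of RPL9 spread around those with PM10, and both inflamed groups lay below all 4. Its difference was -0.997 ± 0.11 (SE, adjusted p = 0.000146) with PM10 and -0.69 ± 0.11 (SE, adjusted p = 0.00127) without PM10. RPS24 differed by -0.98 ± 0.05 (SE, adjusted p = 4.44e-06) with PM10 and -0.85 ± 0.05 (SE, adjusted p = 1.24e-05) without PM10.

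**Figure D3:**
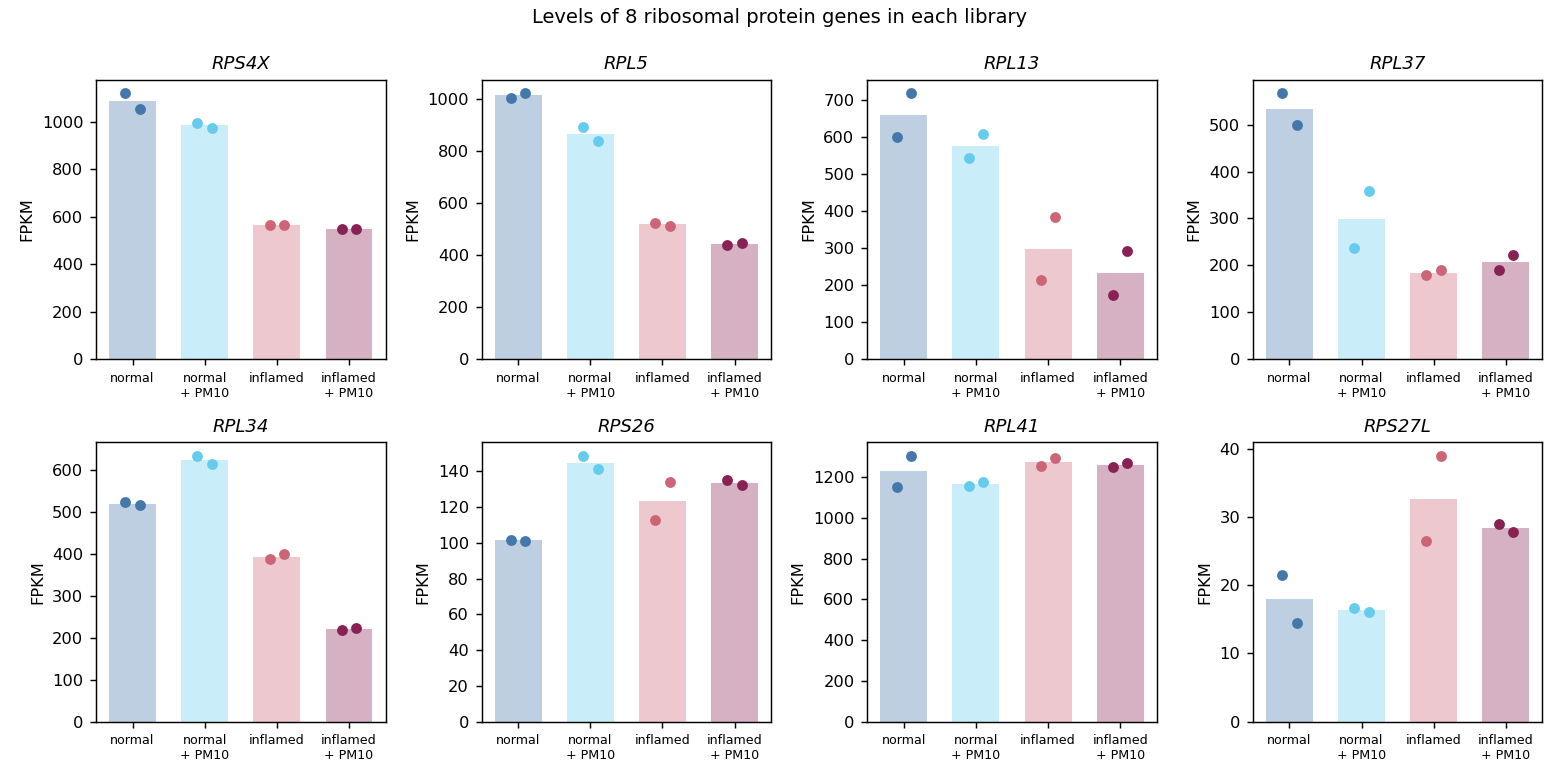
Level in FPKM of 8 ribosomal protein genes in each library (points) with the group mean (bars), each panel on its own axis from 0. RPS4X, RPL5 and RPL13 are low in both inflamed groups, and RPL37 is lowered in all groups other than normal hIECs. RPL34 is lowest in inflamed hIECs with PM10 at 219 and 223 FPKM. RPS26, RPL41 and RPS27L are not called lower with the cytokines. In the presence of PM10, RPS26 is at 135 and 132 FPKM with the cytokines against 149 and 141 without.

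A few of the genes did not pass as lower in one or both pairs of groups. RPL41, one of the 5 most abundant, was at 1153 and 1305 FPKM in the normal libraries, 1156 and 1176 with PM10, 1253 and 1292 in the inflamed libraries, and 1251 and 1269 in the inflamed libraries with PM10. The 2 normal libraries of RPL41 spanned the other 6, and its difference with the cytokines was 0.05 ± 0.06 (SE, adjusted p = 0.503) without PM10 and 0.11 ± 0.06 (SE, adjusted p = 0.156) with PM10. RPL35A, a large subunit protein, was at 363 and 348 FPKM in the normal libraries, 396 and 383 with PM10, 312 and 324 in the inflamed libraries, and 274 and 203 in the inflamed libraries with PM10. It had a difference of -0.16 ± 0.12 (SE, adjusted p = 0.292) without PM10, which did not pass, and was called lower with PM10 at -0.72 ± 0.12 (SE, adjusted p = 0.00141). RPL41 and RPL35A were named because they were not called, after their values were seen.

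RPS26, a small subunit protein that contacts the mRNA at the exit channel, was the one gene other than like-named copies to be called higher with the cytokines. It was at 101 and 101 FPKM in the normal libraries, 149 and 141 with PM10, 113 and 134 in the inflamed libraries, and 135 and 132 in the inflamed libraries with PM10. The normal libraries were the lowest, those with PM10 alone were the highest, and both inflamed groups lay between and overlapped. The difference was 0.28 ± 0.08 (SE, adjusted p = 0.0186) without PM10, a call that was lost without normal library 1 (adjusted p = 0.0575), normal library 2 (0.0624) or inflamed library 2, where the value was 0.15 (0.0839). In the presence of PM10 it was -0.12 ± 0.08 (SE, adjusted p = 0.224). Pseudogene rows named after RPS26 summed to 15.1% of its own level, and reads may have been divided between them.

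Like-named copies were counted apart. These copies are separate genes, some enriched in particular tissues, whose proteins can stand in for the common form in the ribosome or act outside it. Of the 5 expressed copies, RPS27L, RPL39L and RPL7L1 were called higher with the cytokines in both pairs of groups, while RPS27, RPL39 and RPL7 were called lower in both. Of the 81 genes, these 3 copies and RPS26 were the 4 called higher without PM10. They were also the 3 called higher with PM10, where 0 of them passed in limma without normal PM10 library 2 and 1 without inflamed PM10 library 1.

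RPS27L, a p53 target, was at 21.5 and 14.5 FPKM in the normal libraries, 16.6 and 16 with PM10, 26.4 and 39 in the inflamed libraries, and 28.9 and 27.8 in the inflamed libraries with PM10. Every inflamed library was above every library without cytokines. Its difference was 0.82 ± 0.20 (SE, adjusted p = 0.011) without PM10 and 0.76 ± 0.20 (SE, adjusted p = 0.0131) with PM10, against -0.74 and -0.70 for RPS27. The call without PM10 was lost without normal library 2 (adjusted p = 0.0654) or inflamed library 2 (0.0593), and the call with PM10 without normal PM10 library 2 (0.0593) or inflamed PM10 library 1 (0.0595). As a percent of the RPS27 level, RPS27L stood at 1.13% and 0.843% in the normal libraries, 0.971% and 0.944% with PM10, 2.44% and 3.58% in the inflamed libraries, and 2.77% and 2.62% in the inflamed libraries with PM10.

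RPL39L, a copy best known from testis, was at 20.2 and 17.5 FPKM in the normal libraries, 14.2 and 13.5 with PM10, 27.3 and 23.6 in the inflamed libraries, and 17.7 and 18 in the inflamed libraries with PM10. It rose with the cytokines and fell with PM10, so that inflamed hIECs with PM10 returned to the range of normal hIECs. Its difference with the cytokines was 0.41 ± 0.09 (SE, adjusted p = 0.00536) without PM10 and 0.35 ± 0.09 (SE, adjusted p = 0.00957) with PM10, and the second was lost without normal PM10 library 2 (adjusted p = 0.0551). RPL39, whose protein lines the peptide tunnel, was at 961 and 959.6 FPKM in the normal libraries, 809 and 783 with PM10, 611 and 573 in the inflamed libraries, and 499 and 491 in the inflamed libraries with PM10, with differences of -0.70 and -0.68. Relative to RPL39, RPL39L stood at 2.1% and 1.83% in the normal libraries, 1.75% and 1.73% with PM10, 4.46% and 4.12% in the inflamed libraries, and 3.55% and 3.67% in the inflamed libraries with PM10.

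RPL7L1, which takes part in building the large subunit, was at 16.4 and 14.9 FPKM in the normal libraries, 18.8 and 18.1 with PM10, 20.1 and 18.8 in the inflamed libraries, and 22.3 and 21.4 in the inflamed libraries with PM10. Every library with cytokines was above every library without. Its difference with the cytokines was 0.30 ± 0.06 (SE, adjusted p = 0.00546) without PM10 and 0.23 ± 0.06 (SE, adjusted p = 0.014) with PM10. The second was lost without normal PM10 library 2 (adjusted p = 0.0762) or inflamed PM10 library 1 (0.0822). RPL7 was at 604 and 596 FPKM in the normal libraries, 556 and 556 with PM10, 407 and 400.2 in the inflamed libraries, and 387 and 388 in the inflamed libraries with PM10, with differences of -0.57 and -0.52. The ratio of RPL7L1 to RPL7 was 2.71% and 2.51% in the normal libraries, 3.38% and 3.26% with PM10, 4.93% and 4.71% in the inflamed libraries, and 5.75% and 5.51% in the inflamed libraries with PM10.

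RPL22L1, the copy of RPL22, was at 17.5 and 16.2 FPKM in the normal libraries, 13.1 and 13.2 with PM10, 18.1 and 20.8 in the inflamed libraries, and 15.1 and 15.1 in the inflamed libraries with PM10. Its difference with the cytokines did not pass, at 0.20 ± 0.07 (SE, adjusted p = 0.0545) without PM10 and 0.18 ± 0.07 (SE, adjusted p = 0.0609) with PM10. RPL22 was at 217 and 218 FPKM in the normal libraries, 195 and 185 with PM10, 148 and 149 in the inflamed libraries, and 138 and 134 in the inflamed libraries with PM10, with called differences of -0.54 and -0.48. The ratio of RPL22L1 to RPL22 was 8.07% and 7.4% in the normal libraries, 6.71% and 7.14% with PM10, 12.2% and 13.9% in the inflamed libraries, and 10.9% and 11.2% in the inflamed libraries with PM10, so the groups with cytokines did not overlap those without. Pseudogene rows named after RPL22 summed to 17.5% of its level.

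RPL26L1, the copy of RPL26, was at 39.7 and 39.3 FPKM in the normal libraries, 45 and 44.6 with PM10, 38.1 and 41.9 in the inflamed libraries, and 34.3 and 35.8 in the inflamed libraries with PM10. Its inflamed libraries with PM10 were below all others. The difference with the cytokines was 0.02 ± 0.06 (SE, adjusted p = 0.834) without PM10 and -0.35 ± 0.06 (SE, adjusted p = 0.00129) with PM10, and only the second was called. RPL26 was at 1213 and 1393 FPKM in the normal libraries, 1092 and 1013 with PM10, 849.7 and 911 in the inflamed libraries, and 778 and 809 in the inflamed libraries with PM10, with called differences of -0.56 and -0.41. RPL26L1 made up 3.27% and 2.82% in the normal libraries, 4.12% and 4.4% with PM10, 4.48% and 4.6% in the inflamed libraries, and 4.4% and 4.43% in the inflamed libraries with PM10 of the RPL26 level. The copies of RPL3 and RPL10 were at 0, and RPL3, which sits at the peptidyl transferase centre, was at 1085 and 1099.7 FPKM in the normal libraries, 1014 and 1028 with PM10, 662 and 655 in the inflamed libraries, and 626 and 631 in the inflamed libraries with PM10, with differences of -0.73 and -0.70.

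**Figure D4:**
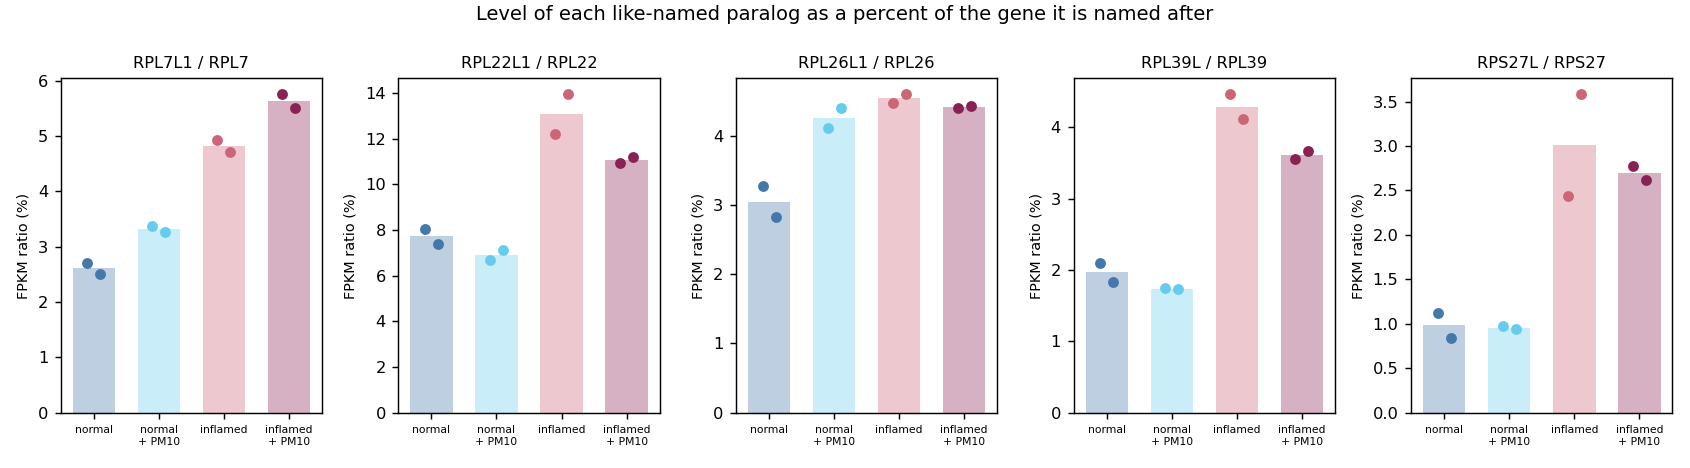
FPKM of each of the 5 expressed like-named copies as a percent of the FPKM of the gene it is named after, in each library (points) with the group mean (bars), each panel on its own axis from 0. For RPL7L1, RPL22L1, RPL39L and RPS27L all 4 libraries with cytokines lie above all 4 without, while for RPL26L1 the normal libraries are the lowest.

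With PM10 the differences were smaller. In normal hIECs, 28 of the 81 genes were called lower with PM10 and 2 higher in limma, where 3.72% of all genes were called lower and 5.51% higher. Over all genes these were 528 lower and 783 higher, against 749 and 563 after centring each library on its median. The median difference was -0.20, a level that fell by 12.8%, beside 0.06 over all genes. The 2 libraries with PM10 lay below the 2 normal ones for 66 of the 81, as they did for 19.2% of all genes. The number of calls rested on single libraries. It was 0 without normal PM10 library 1, 1 without normal PM10 library 2 and 47 without normal library 1, while the median stayed between -0.21 and -0.17 in every fit with a library left out. After quantile normalization 5 were lower and 2 higher, and the median was -0.06. Fitted with only the 2 groups compared, limma called 0 of the 81, of which 42 had an unadjusted p-value under 0.05.

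In inflamed hIECs, 26 of the 81 genes were called lower with PM10 and 0 higher, where 9.02% of all genes were called lower and 6.22% higher. The median difference was -0.17, a level that fell by 11.4%, beside -0.01 over all genes. Libraries were separated downward for 65 of the 81 and for 33.2% of all genes. Here too the calls rested on the libraries compared, with 4 and 6 calls without inflamed library 1 or 2 and 3 and 4 without inflamed PM10 library 1 or 2. The 2 PM10 comparisons share no library, but both were tested in the same fit with a shared spread for each gene. Calls in the 2 are therefore not independent.

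In 70 of the 81 genes the value was below 0 with PM10 both in normal and in inflamed hIECs, a share not computed over all genes. Of the 81, 16 were called lower in both. These 16 were 57.1% of the genes called lower in normal hIECs and 61.5% of those called lower in inflamed hIECs, and among all genes tested 1.15% were called lower in both. Among them were RPL5, which binds the 5S rRNA, the P stalk protein RPLP1, the copies RPL22L1 and RPL39L, and RPL12, RPL23A, RPS7, RPS12 and RPS25. The calls of RPL5, RPLP1, RPL22L1 and RPL39L were lost in both kinds of hIECs when either PM10 library compared was left out. Their values stayed below 0 in those fits. Such fits are not given here for the other genes named. The subunits were again alike, with medians of -0.22 and -0.19 for the large and small subunit in normal hIECs and -0.16 and -0.17 in inflamed hIECs.

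The genes with the largest called falls in normal hIECs were RPL37, RPS20, RPL39L, RPL18 and RPL37A. RPL37 fell from 568 and 499 FPKM to 237 and 358, a difference of -0.87 ± 0.18 (SE, adjusted p = 0.0292). This call was lost when any library other than normal PM10 library 2 was left out, with adjusted p-values of 0.0532 to 0.0838, and the value was -0.57 without normal PM10 library 1. RPS20, a small subunit protein, was at 652 and 715 FPKM in the normal libraries, 518 and 476 with PM10, 445 and 504 in the inflamed libraries, and 419 and 461 in the inflamed libraries with PM10. The PM10 libraries of RPS20 were below the others in normal hIECs and overlapped in inflamed hIECs. The difference was -0.46 ± 0.08 (SE, adjusted p = 0.0213) in normal hIECs and -0.11 ± 0.08 (SE, adjusted p = 0.422) in inflamed hIECs, where it did not pass. RPL37A, a zinc finger protein of the large subunit, was at 262 and 300.1 FPKM in the normal libraries, 206 and 216 with PM10, 156 and 159.8 in the inflamed libraries, and 133 and 137 in the inflamed libraries with PM10. Its differences were -0.41 ± 0.07 (SE, adjusted p = 0.0159) in normal hIECs and -0.23 ± 0.07 (SE, adjusted p = 0.0659) in inflamed hIECs, the second not called. RPL39L differed by -0.42 in normal hIECs and -0.48 in inflamed hIECs, both called, and RPL18 by -0.41 in normal hIECs. Without normal PM10 library 1 or 2, RPS20, RPL39L, RPL18 and RPL37A all missed the threshold in normal hIECs, with adjusted p-values of 0.0601 to 0.142. RPS20 and RPL18 also missed it without normal library 2 (adjusted p = 0.082 and 0.0655), and RPL39L without normal library 1 (0.0576) or either inflamed PM10 library (0.0632 and 0.0633).

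In inflamed hIECs the largest falls with PM10 were those of RPL34, RPL39L, RPL10, RPL14 and RPL22L1. RPL10, a large subunit protein that is added late as the subunit matures, was at 877 and 942 FPKM in the normal libraries, 752 and 813 with PM10, 548 and 591 in the inflamed libraries, and 430.2 and 436 in the inflamed libraries with PM10. RPL14, another large subunit protein, was at 392 and 389 FPKM in the normal libraries, 352 and 359.6 with PM10, 279 and 287 in the inflamed libraries, and 228 and 215 in the inflamed libraries with PM10. The inflamed libraries of both genes with PM10 lay well below those without. The differences were -0.39 ± 0.06 (SE, adjusted p = 0.00789) for RPL10 and -0.35 ± 0.05 (SE, adjusted p = 0.00396) for RPL14, and RPL22L1 differed by -0.35 ± 0.07 (SE, adjusted p = 0.0229). RPL10 missed the threshold without inflamed library 2 or either inflamed PM10 library, at adjusted p-values of 0.0618, 0.0579 and 0.0509. RPL22L1 missed it without the same libraries, at -0.25 (adjusted p = 0.116) without inflamed library 2 and at adjusted p-values of 0.108 and 0.107 without an inflamed PM10 library. RPL39L missed it without inflamed library 1 (0.0761) or inflamed PM10 library 1 (0.0762) or 2 (0.0685), while RPL14 stayed under it in every fit with a library left out.

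RPS26 and RPL34 were the 2 genes called higher with PM10 in normal hIECs. RPS26 rose from 101.4 and 101.2 FPKM to 149 and 141, a difference of 0.51 ± 0.08 (SE, adjusted p = 0.0123), and this call was lost without normal PM10 library 1 (adjusted p = 0.0879) or 2 (0.0628). In inflamed hIECs its difference was 0.12 ± 0.08 (SE, adjusted p = 0.347).

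RPL34 went in opposite directions with PM10 in the 2 kinds of cells. This large subunit protein gene lies on the plus strand of chr4:108620569-108630412 in GRCh38, and its exons overlap no other gene of GENCODE release 44. It was at 524 and 515 FPKM in the normal libraries, 634 and 614 with PM10, 387 and 399 in the inflamed libraries, and 219 and 223 in the inflamed libraries with PM10. In normal hIECs both PM10 libraries were above both normal ones, and in inflamed hIECs both were far below. The difference was 0.26 ± 0.04 (SE, adjusted p = 0.0148) in normal hIECs and -0.83 ± 0.04 (SE, adjusted p = 0.000123) in inflamed hIECs. The difference between these 2 effects, the interaction of PM10 and cytokines, was -1.09 ± 0.06 (SE, adjusted p = 0.000493). Its adjusted p-value stayed between 0.000252 and 0.00963 in every alternative, with values of -1.24 to -1.05. The rise in normal hIECs alone missed the threshold without normal PM10 library 1 (adjusted p = 0.105) or 2 (0.0745). Counted over the cytokine comparisons, RPL34 fell by 0.40 without PM10 and by 1.49 with PM10 on the log2 scale.

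Of the 81 genes, 2 passed the interaction test, RPL34 and RPL26L1, and 6.6% of all genes did (300 higher and 637 lower, or 453 and 539 after centring on the median). RPL26L1 had an interaction of -0.36 ± 0.08 (SE, adjusted p = 0.044). The effect of PM10 was 0.18 ± 0.06 (SE, adjusted p = 0.0938) in normal hIECs and -0.18 ± 0.06 (SE, adjusted p = 0.0706) in inflamed hIECs, and neither passed alone. The interaction call was lost whichever library was left out, with adjusted p-values of 0.0567 to 0.145. Exons of RPL26L1 overlap its antisense gene RPL26L1-AS1, and without strand information their reads cannot be told apart. RPL37 had the interaction furthest above 0, 1.03 ± 0.25 (SE, adjusted p = 0.0572), which did not pass. The median interaction of the 81 genes was 0.05, beside -0.06 over all genes.

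Genes with and without the TOP tract at an annotated start were called lower. Among tested genes of the rule with the tract at an annotated start, 44 of 47 were called lower with the cytokines without PM10 and 0 higher, with a median of -0.62. Among the 18 tested genes with an entry and no tract at any annotated start, 14 were lower and 3 higher, with a median of -0.64. These 18 include genes with a tract within 5 bases of a start, such as RPL4 and RPL10A. With the cytokines in the presence of PM10 the called lower were 44 of 47 and 15 of 18. With PM10 in normal hIECs they were 13 of 47 (27.7%) and 5 of 18 (27.8%), and in inflamed hIECs 16 of 47 (34%) and 3 of 18 (16.7%). The difference between genes with and without the tract was not tested. Outside the ribosomal protein genes, 716 tested genes carried the tract at an annotated start. Of these, 35.6% were called lower with the cytokines without PM10, beside 28.3% of the 9345 without it there. The medians of these genes were -0.09 and 0.00.

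Other genes of the translation machinery were read from lists. Their counts stand beside 25.9% higher and 30.3% lower over all genes tested for the cytokines without PM10, and 25.8% and 39.6% with PM10. Of 16 elongation factors and other genes known for TOP mRNAs, 14 (87.5%) were called lower with the cytokines without PM10 and 0 higher, with a median of -0.42, and 11 (68.8%) were lower and 1 higher with PM10. Among them were TPT1, the translationally controlled tumour protein, at -0.66, and EIF4A2, an RNA helicase of initiation, at -0.73. The 14 host genes of small nucleolar RNAs, which share the TOP start in part and guide rRNA modification through their introns, had 11 (78.6%) lower without PM10 and 12 (85.7%) with PM10, with medians of -0.62 and -0.48. SNHG32 was at -1.06 and ZFAS1 at -0.87 without PM10.

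Of 23 initiation factors, 8 (34.8%) were called higher and 4 (17.4%) lower without PM10, among them EIF2S1, a subunit of the factor that brings the initiator tRNA, at 0.57, and EIF3L, a subunit of the scaffold factor eIF3, at -1.01. Of 49 ribosome biogenesis factors, 17 (34.7%) were higher and 4 (8.16%) lower without PM10, with a median of 0.11, and 11 (22.4%) were higher and 14 (28.6%) lower with PM10, with a median of -0.03. DDX21, a nucleolar helicase, was at 0.46 and BOP1, a factor for the large subunit rRNA, at -1.13 without PM10. Of 19 genes for RNA polymerase I and rDNA transcription, 0 were higher and 4 (21.1%) lower without PM10, and 2 (10.5%) were higher and 7 (36.8%) lower with PM10. UBTF, the main activator of rDNA, was at -0.33 and -0.60.

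With PM10 in normal hIECs, where 5.51% of all genes were higher and 3.72% lower, 7 of the 49 biogenesis factors (14.3%) were called higher and 0 lower, with a median of 0.19. Among the elongation and other TOP genes 0 were higher and 2 lower, among the small nucleolar RNA hosts 0 and 3, among initiation factors 2 and 0, and among the polymerase I genes 2 and 0. In inflamed hIECs, where 6.22% of all genes were higher and 9.02% lower, the biogenesis factors had 3 higher and 1 lower with PM10, the elongation and other TOP genes 0 and 3, the hosts 0 and 4, the initiation factors 1 and 2, and the polymerase I genes 2 and 1. The median of the biogenesis factors there was 0.08.

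Of 18 tested genes of the pathway that controls TOP mRNAs, 5 (27.8%) were called higher and 4 (22.2%) lower with the cytokines without PM10, beside 25.9% and 30.3% of all genes, and 6 (33.3%) each way with PM10, beside 25.8% and 39.6%. LARP1, which binds the TOP tract, was at 0.39 without PM10 and 0.41 with PM10, and the kinase MTOR was at 0.31 without PM10. MLST8, a partner of mTOR, was at -0.54, TSC2, an inhibitor of the pathway, at -0.54, and DEPTOR, which binds and restrains mTOR, at -1.56. With PM10 in normal hIECs 3 (16.7%) were higher and 1 (5.56%) lower, beside 5.51% and 3.72% of all genes. In inflamed hIECs 4 (22.2%) were higher and 2 (11.1%) lower with PM10, beside 6.22% and 9.02%.

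The mitochondrial ribosome is a separate particle built from its own proteins. Of its 78 genes, all tested, 16 (20.5%) were called higher and 19 (24.4%) lower with the cytokines without PM10, and 16 (20.5%) and 26 (33.3%) with PM10, in each case below the shares over all genes, with medians of -0.01 and -0.08. With PM10, 2 (2.56%) were higher and 3 (3.85%) lower in normal hIECs, beside 5.51% and 3.72% of all genes. In inflamed hIECs 0 were higher and 4 (5.13%) lower with PM10, beside 6.22% and 9.02%. The medians with PM10 were 0.05 in normal and -0.02 in inflamed hIECs.

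**Figure D5:**
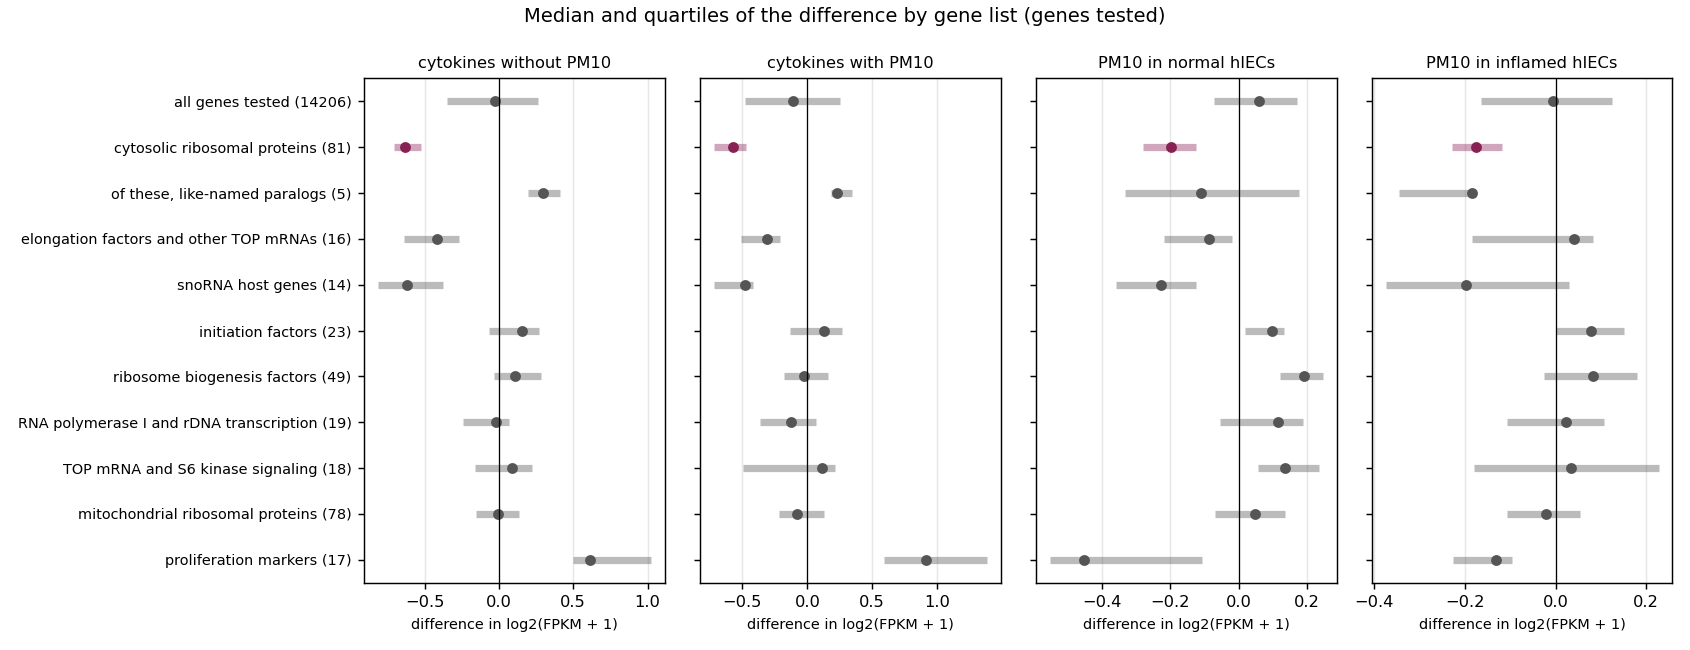
Median (points) and lower to upper quartile (bars) of the difference in log2(FPKM + 1) for all genes tested, the 81 cytosolic ribosomal protein genes, the 5 like-named copies among them and 8 further gene lists, with the number of genes tested in brackets, in 4 comparisons with separate axes. The cytosolic ribosomal proteins have medians of -0.63 and -0.57 with the cytokines, close to those of small nucleolar RNA hosts, while mitochondrial ribosomal proteins are at -0.01 and -0.08.

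Markers of other cells and states moved with the groups as well. The counts with the cytokines stand beside 25.9% higher and 30.3% lower over all genes without PM10, and 25.8% and 39.6% with PM10. Of 17 proliferation markers, 15 (88.2%) were called higher with the cytokines without PM10 and 16 (94.1%) with PM10. With PM10 in normal hIECs 11 (64.7%) were lower, beside 3.72% of all genes, and in inflamed hIECs 2 (11.8%), beside 9.02%. Their summed level was 244 to 259 FPKM in the normal libraries, 193 to 202 with PM10, 409 to 418 in the inflamed libraries and 377 to 378 in the inflamed libraries with PM10. The summed level of the 15 mesenchymal markers was 6239 to 6245 FPKM in the normal libraries and 5362 to 5435 with PM10. It was 7452 to 7536 in the inflamed libraries and 6925 to 6961 in the inflamed libraries with PM10. With the cytokines 8 (53.3%) were called higher and 5 (33.3%) lower without PM10, and 7 (46.7%) each way with PM10. With PM10 in normal hIECs 3 (20%) were higher and 4 (26.7%) lower, beside 5.51% and 3.72% of all genes. In inflamed hIECs 1 (6.67%) was higher and 8 (53.3%) lower with PM10, beside 6.22% and 9.02%. The 21 epithelial markers summed to 659 to 668 FPKM in the normal libraries, 615 to 652 with PM10 and 299 to 362 in the 4 libraries with cytokines. Only 5 of the 21 were tested. With the cytokines 3 of these were called lower and 1, LGR5, higher, both without and with PM10. The 15 neuronal markers, of which 6 were at 0 in all libraries, summed to 368 to 392, 422 to 423 and 213 to 217 FPKM. Of the 9 tested, 1, SYT1, was called higher with the cytokines in both pairs of groups. Lower calls numbered 6 without PM10 and 7 with PM10. The part of these markers in the fall of the ribosomal protein mRNAs was not tested.

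The genes lie on 21 chromosomes, and 28 of the 83 hold small nucleolar RNA genes, 59 in all. In 46 (55.4%) an exon overlaps an exon of another gene. With the cytokines without PM10, 45 of 46 tested genes with such an overlap and 28 of 35 without one were called lower. This stands beside 30.3% of all genes, and the medians were -0.65 and -0.62. Those without an overlap and not called lower were the copies RPL7L1, RPL22L1, RPL39L and RPS27L, and RPS26, RPL41 and RPL35A. Rows of pseudogenes named after the genes numbered 1136, of which 202 were above 0 in any library, and their summed level was 2.29% to 2.48% of that of the genes. It was highest beside RPS28 (127% of the gene's own level), RPL23A (21.9%), RPL22, RPL15 (17.2%), RPSA (16.8%) and RPS26, so the levels of these genes are the least certain. With the pseudogene rows added to their genes, 77 and 74 of the 81 were called with the cytokines, the same counts as without them.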

How the data were processed

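RNA-seq of 8 libraries of H9-derived hIECs was analysed, 2 for each of 4 groups. The authors selected poly-A RNA, kept no strand information, clipped adapters with cutadapt, trimmed with Sickle, aligned to hg38 with HISAT2 and estimated expression with StringTie. For each library the authors deposited 1 FPKM value per gene. The annotation release is not given in the sources used here.

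Read counts cannot be had from FPKM, so count models were not used, and the depth is known only through the lowest value above 0 in each library (0.164 to 0.228 FPKM). Differences are of log2(FPKM + 1), which understates changes at low levels, and were tested with limma 3.58.1 (R 4.3.3, variance trend) in 1 fit of all 8 libraries to the 14206 genes that reached 1 FPKM in 2 or more libraries. The Benjamini-Hochberg adjustment ran over all genes of each of 5 comparisons, with 0.05 as the threshold. Medians of gene lists are descriptions with no test. The ribosomal protein genes and all lists were chosen with earlier results of these data known. Genes are named by size of change (up to 5 in each direction among those called with separated libraries, per comparison), by role (P stalk, 5S particle, ubiquitin fusion, RPS6, RPL13A), as like-named copies, or by level (the 3 highest and 3 lowest). Values of some genes are not reported here.

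Positions and overlaps are from GENCODE release 44 and start sites from RefSeq, both GRCh38, matched by identifier for 83 of 83 genes and by symbol for 66 of 83. The protein identity of the copies was not computed. Tested on simulated data for the cytokines without PM10, limma called 171 of 200 genes changed by 1 on the log2 scale among 14206, and 2.29% of its calls were unchanged genes. In the real data many more genes were called, and most differences with PM10 were smaller. The simulated share therefore does not measure false calls among those differences. The alternatives changed the pseudocount, the low-value filter, the scaling, the genes and groups fitted, the variance trend, the replicate number, the handling of pseudogene rows, and the libraries, each left out once. Further steps used Python 3.11.15 with pandas 2.3.3 and matplotlib 3.10.9.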

Additional observations from a re-analysis of the deposited data

Results flagged for a closer look

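The effect of PM10 on RPL34 differed between normal and inflamed hIECs by a test of the difference itself. The interaction was -1.09 on the log2 scale (limma, adjusted p = 0.000493), from 524 and 515 FPKM to 634 and 614 in normal hIECs and from 387 and 399 to 219 and 223 in inflamed hIECs. The same test gave -0.36 for RPL26L1 (limma, adjusted p = 0.0440), which missed the threshold under 13 of its alternatives. Over the main fit and all alternatives the value lay between -0.43 and -0.29.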

How the results depend on the processing

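Of the comparisons, those with the cytokines kept their counts within 1.5 times under every alternative, at 71 to 78 genes called without PM10 and 67 to 77 with PM10, and neither their medians nor the called value of a named gene changed sign. After quantile normalization 17 of the 60 called cytokine values of named genes moved by over 1.5 times, of which 1, RPS27A without PM10, was no longer called. The counts with PM10 moved. In normal hIECs 30 of the 81 genes were called, against 7 after quantile normalization, 18 without the variance trend and 0 with only the groups compared, and 0 to 47 with a library left out. In inflamed hIECs 26 were called, against 15 after quantile normalization, 15 without the trend and 3 to 38 with a library left out. The interaction called 2 genes, against 1 with genes above 0 in at least 1 library, 1 after median centring, 1 without the trend and 1 to 9 with a library left out, the 9 without normal library 1 being 7 higher and 2 lower. The medians were -0.06 (PM10 in normal hIECs), -0.39 and -0.45 (cytokines without and with PM10), -0.12 (PM10 in inflamed hIECs) and -0.05 (interaction, otherwise 0.05) after quantile normalization, and -0.25 (PM10 in normal hIECs), -0.52 (cytokines with PM10) and 0.10 (interaction) after median centring. With a library left out the medians ran from -0.21 to -0.17, -0.65 to -0.61, -0.18 to -0.17, -0.59 to -0.57 and 0.02 to 0.05 for PM10 in normal hIECs, cytokines without PM10, PM10 in inflamed hIECs, cytokines with PM10 and the interaction. A group left with 1 library was assumed to vary like the others. With the pseudogene rows added, the share of FPKM was 14.1%, 12.6%, 9.73% and 9.02% in normal, normal with PM10, inflamed and inflamed with PM10. The cause of these changes was not tested. Deviations from the group mean of same-numbered libraries of different groups had correlations of -0.0015 to 0.0793. With 2 libraries a group, these cannot show whether the same number stands for a shared culture or batch. With the replicate number as a block, 27, 77, 23, 75 and 1 genes were called for PM10 in normal hIECs, cytokines without PM10, PM10 in inflamed hIECs, cytokines with PM10 and the interaction. Of 3102 values of single named genes under an alternative, 164 lost a call and 53 gained one. A further 123 stayed uncalled but moved by more than the spread between libraries. The other 2762 kept their call or stayed uncalled within that spread.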
